A study of Homo sapiens with 9 samples.

Results

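The values of 10 growth factor receptors were read from the transcriptomes of SNU5 cells treated with ramucirumab on gold particles or with the free antibody. MET, EGFR, ERBB2, ERBB3, FGFR1, FGFR2, FGFR3, FGFR4, IGF1R and MST1R were taken as listed receptor tyrosine kinases with a known place in gastric carcinoma, and each symbol was matched to 1 Ensembl gene ID, 10 of the 60880 IDs counted. SNU5, the line named by the study, is an established human gastric carcinoma line, known for extra copies of the MET gene. Ramucirumab binds VEGFR2, a receptor for vascular endothelial growth factor that KDR encodes. The cells received AuNR-PEG-Ab (NR, antibody on gold nanorods through polyethylene glycol), AuSP-PEG-Ab (SP, the same on gold nanospheres) or ramucirumab alone (Ab) for 24 h, each with 8 μg/mL of antibody. Each of the 3 groups had 3 poly-A RNA libraries, 9 in all. None of the 3 groups was left without antibody or received gold without it, so gold, polyethylene glycol and the binding of the antibody to a particle cannot be told apart in the comparisons with Ab. The study describes its replicates as biological, but the labels do not tie the libraries to separate cultures, so the p-values measure the spread between these libraries, part of which may be technical.

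Receptor tyrosine kinases carry a ligand-binding part outside the cell and a kinase inside it. Binding of a ligand pairs 2 receptor chains, which phosphorylate each other and recruit adaptors that feed the RAS-ERK and PI3K pathways. MET binds hepatocyte growth factor (HGF) and MST1R, also called RON, binds the related MST1. EGFR binds a family of ligands that includes TGFA, AREG and EREG, while ERBB2 has no known ligand and ERBB3, a weak kinase that binds neuregulins, signals through a partner. FGFR1 to FGFR4 bind fibroblast growth factors and IGF1R binds the insulin-like growth factors. In gastric carcinoma, MET, EGFR, ERBB2 and FGFR2 are known sites of gene amplification.

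The depth of the files differed by library. NR1 held 25735410 counts, NR2 13863155 and NR3 15943980. SP1 held 21682836 counts, SP2 22914759 and SP3 20601906, while Ab1 held 19566064, Ab2 26318227 and Ab3 21031024. Values are given as CPM, counts relative to the size of the library after TMM scaling between libraries. A count of 3 was taken as the floor that a count of 0 allows, and it came to 0.115 to 0.215 CPM. Floors cover counting error only.

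The labelled cell type was compared with its markers first. Of 12 epithelial markers, KRT7, KRT8, KRT18, MUC1 and CLDN4 were abundant in every library. The 12 summed to 3474, 3507 and 3511 CPM in NR, 3995, 3528 and 3613 CPM in SP and 3409.7, 3085 and 3152 CPM in Ab, with KRT7 the most abundant per length. Against Ab, 5 of the 8 tested were higher in both comparisons (EPCAM, CDH1, KRT8, KRT18 and MUC1) and KRT7 was lower, beside 36.4% of all genes higher in each and 36.4% and 36.6% lower (edgeR, adjusted p of at most 0.05). The median log2 fold changes of the 8 were 1.05 in NR and 1.06 in SP, beside -0.0055 and -0.0067 for all genes. KRT19, CLDN3, CDH17 and ESRP1 had at most 2 counts in any library. CDH1, which encodes E-cadherin, had 5, 5 and 9 counts in the Ab libraries and 79 to 159 counts in the NR and SP libraries. With 4 of the 12 epithelial markers at or near 0, the line named by the study was not established from these markers, and its identity was not tested. KDR, which encodes the target of ramucirumab, had 1 count in 1 NR library and 0 in the other 8.

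Some genes used as markers of other cells moved with the particles. The 7 fibroblast markers summed to 112, 107 and 105 CPM in NR, 111, 118 and 118 CPM in SP, and 46.1, 42.8 and 18.0 CPM in Ab, with LUM the most abundant per length. In both comparisons with Ab, 3 of the 6 tested were higher (LUM, DCN and PDGFRB), beside 36.4% of all genes in each (edgeR, adjusted p of at most 0.05), COL1A1, COL1A2 and COL3A1 did not pass, and THY1 had at most 1 count in any library. Of COL1A2, the NR libraries held 37, 0 and 0 counts and the SP libraries 49, 49 and 43, against 198, 278 and 33 in Ab1, Ab2 and Ab3. The 5 endothelial markers matched of 6 listed summed to 22.9, 23.3 and 21.1 CPM in NR, 20.8, 22.7 and 24.1 CPM in SP, and 3.80, 3.79 and 5.23 CPM in Ab. CDH5 was the most abundant, CDH5 and VWF, the 2 tested, were higher in both comparisons, and EMCN had 0 counts throughout. The 11 leukocyte markers summed to 2.63, 2.94 and 2.31 CPM in NR, 2.56, 2.71 and 3.24 CPM in SP, and 2.08, 1.26 and 1.36 CPM in Ab. Of these 11, 8 had at most 3 counts in every library, and CD3D, MS4A1 and LYZ had 0 counts in all 9. In NR against Ab 2 were tested, of which 1 rose and 1 fell, beside 36.4% of all genes higher and 36.4% lower. The 1 tested in SP against Ab rose, beside 36.4% of all genes. The part of these genes in the receptor values was not tested.

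Libraries NR2 and NR3 stood apart from the other 7. A search chosen after the values were seen asked for genes with a mean of at least 20 counts on the higher side and a 2-fold gap between these 2 libraries and all others. It found 13 genes lower and 5 higher in NR2 and NR3. Among the 13 were the receptor tyrosine kinases KIT, ALK, PDGFRA and RET. COL1A2, one of the fibroblast markers, was also among them, as were SPARC, POSTN, COL6A2 and PTX3. KIT had 1 and 0 counts in NR2 and NR3, 167 in NR1, 160, 189 and 162 in SP, and 173, 195 and 139 in Ab. ALK had 0 and 6 counts in NR2 and NR3 and 141 to 193 in the other 7 libraries. PDGFRA had 0 and 0 against 45 to 72, and RET had 1 and 0 against 41 to 69. PIK3CA, a catalytic PI3K subunit, had 19.6 CPM in both NR2 and NR3, 41.1 CPM in NR1 and 46.1 to 51.6 CPM in SP and Ab. Whether the counts of these genes in the other 7 libraries came from the cells was not tested, so their values in NR1, SP and Ab are uncertain too. No listed growth receptor met this criterion, but whether counts of the same kind add to the listed receptors in those 7 libraries was not tested either. ERBB2 had 89.8 CPM in NR1 and 79.6 and 79.0 CPM in NR2 and NR3. In Ab3, COL1A2 had 33 counts against 198 and 278 in Ab1 and Ab2. SPARC had 30 counts in Ab3 against 141 and 186, POSTN 5 against 52 and 75, and COL6A2 13 against 59 and 78. Results for the receptors that rest on one of these libraries are given with and without it.

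**Figure D1:**
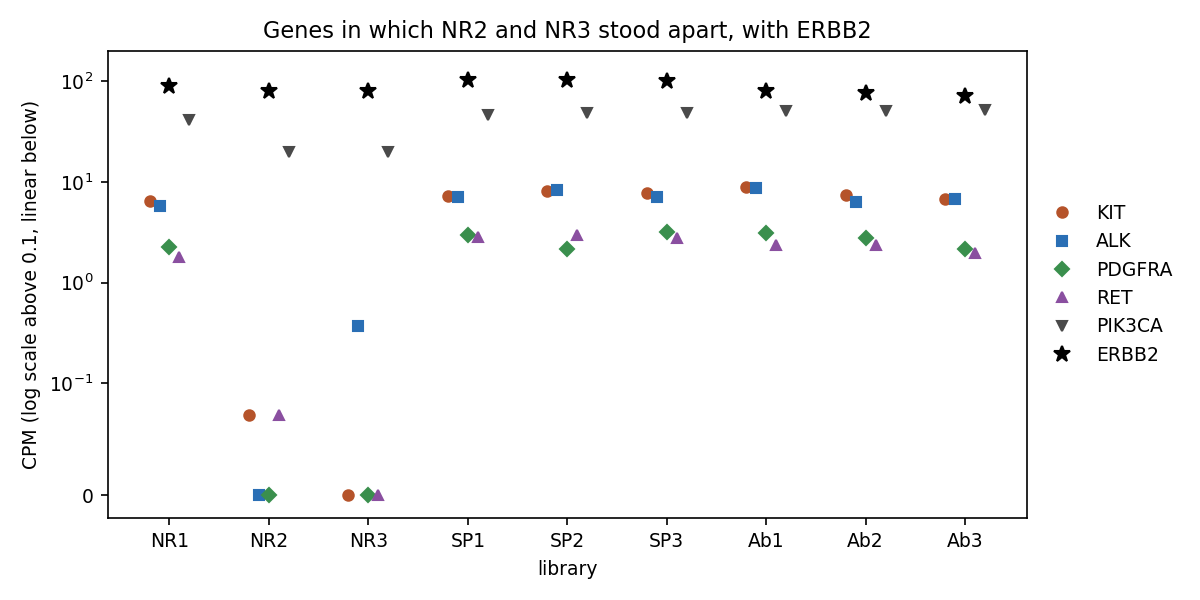
CPM (vertical axis, logarithmic above 0.1 and linear below) of KIT, ALK, PDGFRA, RET, PIK3CA and ERBB2 in each of the 9 libraries (horizontal axis); each point is 1 library. KIT, ALK, PDGFRA and RET lie at or near 0 in NR2 and NR3 and between 1 and 10 CPM elsewhere, and ERBB2 lies between 71.0 and 103 CPM in all 9.

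Levels of different receptors were compared per length, as CPM per kilobase of all exons of a gene. EGFR had the highest level and MET the second highest in all 9 libraries. EGFR ran at 33.3, 36.5 and 36.4 in the NR libraries, at 39.3, 36.8 and 36.1 in the SP libraries and at 61.5, 63.4 and 63.5 in the Ab libraries. MET ran at 32.3, 32.8 and 32.7 in NR, at 33.9, 34.7 and 33.0 in SP and at 33.0, 36.8 and 35.4 in Ab. EGFR and MET were close in the particle groups on this length, with means of 35.4 ± 1.81 and 32.6 ± 0.239 (SD, n = 3) in NR, and well apart in Ab, with 62.8 ± 1.09 and 35.1 ± 1.91 (SD, n = 3).

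Below these, the order depended on the group. In Ab, MST1R came next with 15.5 ± 1.07 (SD, n = 3), followed by FGFR3 with 13.6 ± 0.834, IGF1R with 8.17 ± 0.0989, ERBB2 with 7.29 ± 0.386, ERBB3 with 5.13 ± 0.159, FGFR1 with 2.87 ± 0.0870 and FGFR4 with 1.23 ± 0.233. No neighbours in this order overlapped in Ab. In NR, FGFR3 came next with 15.04 ± 1.52, MST1R with 8.09 ± 0.642 and ERBB2 with 8.02 ± 0.588 overlapped, FGFR4 with 6.81 ± 0.246 and IGF1R with 6.75 ± 0.198 overlapped, and ERBB3 with 6.05 ± 0.314 and FGFR1 with 2.70 ± 0.146 followed. In SP, ERBB2 with 9.87 ± 0.0724 lay above MST1R with 8.04 ± 0.2996 and IGF1R with 7.34 ± 0.0814, and FGFR4 with 6.37 ± 0.348 and ERBB3 with 6.04 ± 0.454 overlapped. FGFR4 thus stood last of the 9 detected receptors in Ab and above FGFR1 in NR and SP. FGFR2 had 0 counts in all NR and SP libraries and 1 count in each Ab library, so it was at the floor in all 9 and was not tested.

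MET made up 26.8% ± 0.386 of the summed level of the 10 receptors in NR, 26.5% ± 0.630 in SP and 23.1% ± 1.14 in Ab (SD, n = 3). EGFR made up 29.2% ± 0.904, 29.3% ± 0.827 and 41.4% ± 0.713. The sum itself was 121 ± 2.55 in NR, 128 ± 2.20 in SP and 152 ± 1.37 in Ab. The exons counted for a gene set these levels. With the length of the longest transcript in their place, the mean level over the 9 libraries rose from 45.2 to 72.7 for EGFR, from 8.39 to 17.6 for ERBB2 and from 33.8 to 35.6 for MET, so the distance between EGFR and MET and the order of the receptors below them rest on the length taken. For example, ERBB3 then lay above IGF1R in the group means, with 6.62% against 4.50% of the summed level in NR, 6.27% against 4.64% in SP and 4.48% against 4.35% in Ab. EGFR and MET were then no longer close in the particle groups, with 33.3% against 20.03% in NR and 33.3% against 19.7% in SP.

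**Figure D2:**
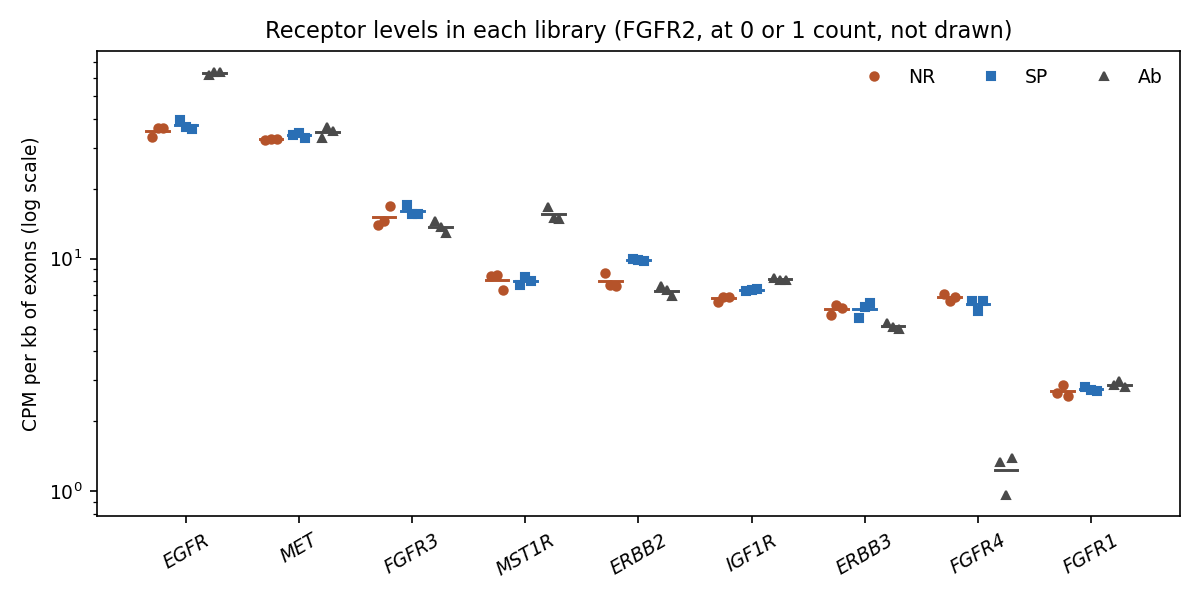
Level of each receptor in CPM per kilobase of exons (vertical axis, logarithmic) in NR, SP and Ab; each point is 1 library and the short lines are means of 3 libraries. FGFR4 lies near 1.23 in Ab and near 6.81 and 6.37 in NR and SP, while EGFR and MST1R lie higher in Ab and MET stays between 32.3 and 36.8.

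To ask how the receptors differed between antibody on particles and free antibody, the receptors were taken from tests across all genes with edgeR's quasi-likelihood test and Benjamini-Hochberg adjustment. Of the 10 receptors, 9 had enough counts to be tested. At an adjusted p of at most 0.05, 3 rose (ERBB2, ERBB3 and FGFR4) and 4 fell (MET, EGFR, IGF1R and MST1R) in NR against Ab, 7 of 9 in all. Of all 15009 genes tested, 72.7% passed in that comparison, 36.4% higher and 36.4% lower. In SP against Ab, 4 rose (ERBB2, ERBB3, FGFR3 and FGFR4) and 3 fell (EGFR, IGF1R and MST1R), again 7 of 9, beside 73.0% of 15068 genes, 36.4% higher and 36.6% lower. Both shares of receptors were near those of all genes. Only FGFR4 also changed by at least 2-fold, beside 22.7% of all genes in NR against Ab and 23.2% in SP against Ab. The CPM of the groups did not overlap for 7 of 9 receptors in each comparison, beside 74.7% and 75.1% of all genes. The median log2 fold change of the 9 receptors was -0.09 in NR against Ab and -0.04 in SP against Ab, and those of all genes were -0.0055 and -0.0067. The comparisons share the 3 Ab libraries, so they are not independent of each other.

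FGFR4, a receptor that pairs with the co-receptor KLB to bind FGF19, had the largest change of the 9. The NR libraries held 874, 439 and 530 of its counts, the SP libraries 689, 667 and 657, and the Ab libraries 124, 121 and 138. In CPM these came to 33.8, 31.5 and 33.0 for NR, 31.5, 28.7 and 31.7 for SP, and 6.45, 4.64 and 6.68 for Ab. All 6 particle libraries lay far above the 3 Ab libraries. The log2 fold change was 2.49 ± 0.106 (SE) in NR against Ab, a 5.62-fold rise (adjusted p = 7.28e-18), and 2.40 ± 0.109 in SP against Ab, a 5.27-fold rise (adjusted p = 5.94e-17). FGFR4 lies at chr5:176513906-176525145 on the plus strand of GRCh37 and shares no exon bases with other genes.

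MST1R, the receptor for MST1, was lower with both particles. It had 44.1, 44.8 and 38.6 CPM in NR, 40.6, 43.8 and 42.2 CPM in SP, and 87.8, 78.6 and 77.7 CPM in Ab. Particle and Ab libraries did not overlap, and the NR and SP libraries overlapped. MST1R fell, with log2 fold changes of -0.93 ± 0.0649 in NR against Ab (adjusted p = 3.68e-13) and -0.94 ± 0.0639 in SP against Ab (adjusted p = 2.70e-13), just short of 2-fold. Its position is chr3:49924435-49941306 on the minus strand of GRCh37, and 6.78% of its exon bases also belong to other genes.

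EGFR, the most abundant of the 10 receptors per length, was also lower with both particles. It had 532, 582 and 581 CPM in NR, 626, 587 and 575 CPM in SP, and 981, 1010.0 and 1012 CPM in Ab. The lowest Ab library lay above the highest particle library. EGFR fell, with log2 fold changes of -0.82 ± 0.0425 in NR against Ab (adjusted p = 3.67e-16) and -0.74 ± 0.0435 in SP against Ab (adjusted p = 1.08e-14). These came to 0.565 and 0.599 of the level in Ab. EGFR lies at chr7:55086710-55279321 on the plus strand of GRCh37.

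The 250 bases before the start site of FGFR4, which rose, and of EGFR and MST1R, which fell, are printed to show the regions that precede these genes. They come from RefSeq on the GRCh38.p14 build, whose table held 14 start sites for 8 of the 10 receptors, and the first start listed is shown for EGFR and FGFR4. FGFR4 is at chr5:177086665-177086914 on the plus strand, EGFR at chr7:55018767-55019016 on the plus strand and MST1R at chr3:49903874-49904123 on the minus strand. Capitals mark matches, on either strand, to a GC box (GGGCGG), an AP-1 site (TGANTCA), an E-box (CAGGTG) or a TATA box (TATAAA).
FGFR4: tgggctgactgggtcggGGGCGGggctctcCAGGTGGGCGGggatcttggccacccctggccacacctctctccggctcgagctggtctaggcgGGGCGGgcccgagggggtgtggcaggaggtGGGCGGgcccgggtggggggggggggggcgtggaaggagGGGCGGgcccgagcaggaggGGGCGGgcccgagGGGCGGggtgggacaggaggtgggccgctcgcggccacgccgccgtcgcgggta
EGFR: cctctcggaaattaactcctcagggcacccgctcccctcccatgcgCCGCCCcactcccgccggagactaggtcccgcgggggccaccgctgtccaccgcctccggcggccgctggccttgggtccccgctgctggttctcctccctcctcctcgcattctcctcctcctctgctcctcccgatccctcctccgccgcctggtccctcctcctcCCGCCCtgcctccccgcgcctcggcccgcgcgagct
MST1R: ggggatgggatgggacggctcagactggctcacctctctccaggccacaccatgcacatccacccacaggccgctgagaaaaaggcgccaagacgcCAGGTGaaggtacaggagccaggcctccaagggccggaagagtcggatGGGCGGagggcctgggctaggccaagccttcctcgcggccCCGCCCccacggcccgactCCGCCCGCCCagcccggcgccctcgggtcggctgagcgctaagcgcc
The FGFR4 window held 7 GC boxes, 1 of which overlaps the E-box, and the MST1R window held 4 GC boxes, 2 of which overlap each other, and 1 E-box apart from them. The EGFR window held 2 GC boxes. None of the 3 windows held the letters of the AP-1 site or of the TATA box, while the window before the other EGFR start in the table (chr7:55109589-55109838, not printed) held 2 AP-1 sites, 2 TATA boxes and no GC box. The window before the other FGFR4 start (chr5:177089300-177089549, not printed) held none of the 4 motifs. Of 35116 such windows before all start sites in the table, 42.6% held a GC box, 17.5% this E-box, 6.57% this AP-1 site and 10.7% this TATA box. GC content was 79.6% for FGFR4, 73.6% for EGFR and 70.8% for MST1R. A match is a run of letters and was not tested as a binding site.

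MET itself, the receptor for HGF, hardly differed. It had 233, 237 and 236 CPM in NR, 245, 251 and 239 CPM in SP, and 239, 266 and 256 CPM in Ab. The highest NR library lay below the lowest Ab library, and the SP libraries overlapped with those of Ab. The log2 fold change was -0.10 ± 0.0458 in NR against Ab (adjusted p = 0.0445) and -0.04 ± 0.0472 in SP against Ab (adjusted p = 0.421). The first of these passed in 5 of 15 alternative settings, where the adjusted p ran from 0.000593 to 1. Without Ab1 it was -0.15 (adjusted p = 0.000593), without Ab2 it was -0.07 (adjusted p = 0.245) and without Ab3 it was -0.10 (adjusted p = 0.104). Without NR1, NR2 or NR3 in turn it was -0.11 each time, with adjusted p of 0.0718, 0.0852 and 0.0817. In SP against Ab, MET passed in 1 of 14 alternatives, without Ab1 (-0.09, adjusted p = 0.0406). That log2 fold change shrank to -0.010 without Ab2 (adjusted p = 0.876) and to -0.015 without SP3 (adjusted p = 0.828). With all libraries kept, MET in NR against Ab also did not pass with DESeq2 (-0.10, adjusted p = 0.0828) or RLE size factors (-0.10, adjusted p = 0.0549). The same held with the replicate block (-0.10, adjusted p = 0.0702). Whether it passed thus turned on the processing as well as on the libraries, while the log2 fold change stayed at -0.10 in these settings.

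MET lies at chr7:116312250-116438431 on the plus strand of GRCh37. Of the 7 protein-coding genes within 500 kb of it, 5 were tested (TES, CAV2, CAV1, CAPZA2 and ST7), and all 5 were higher in both comparisons, beside 36.4% of all genes in each. CAV1, which encodes the membrane protein caveolin-1, had log2 fold changes of 1.33 ± 0.0525 in NR against Ab and 1.41 in SP against Ab. Those of CAPZA2, the nearest, were 0.63 and 0.63. Levels per length over the 9 libraries were 26.6 for CAV1, 24.9 for TES, 15.4 for CAPZA2, 10.8 for CAV2 and 6.10 for ST7, against 33.8 for MET. WNT2 had 1 count in all, and CFTR had 5 to 15 counts in the particle libraries and at most 1 in Ab.

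The other ERBB members were somewhat higher with particles. ERBB2 had 89.8, 79.6 and 79.0 CPM in NR, 103, 102 and 101 CPM in SP, and 78.9, 75.9 and 71.0 CPM in Ab. The SP libraries lay above all others, and NR2 and NR3 lay just above the highest Ab library. The log2 fold change was 0.45 ± 0.0559 in SP against Ab (adjusted p = 5.46e-08) and 0.15 ± 0.0589 in NR against Ab (adjusted p = 0.0287). The latter was 0.07 without NR1 (adjusted p = 0.308), 0.15 without Ab2 (adjusted p = 0.0520) and 0.10 without Ab3 (adjusted p = 0.175). It did not pass with DESeq2 (adjusted p = 0.0741) or among genes with at least 10 counts in every library (adjusted p = 0.0659), and passed in 9 of 15 alternatives, while with NR1 as the only NR library it was 0.27 (adjusted p = 0.00802). Of the exon bases of ERBB2, at chr17:37844167-37886679 on the plus strand, 6.93% also belong to other genes, and since the sources do not say whether the counting used strand, reads there are uncertain.

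ERBB3 had 66.9, 74.2 and 71.6 CPM in NR, 64.9, 72.2 and 75.3 CPM in SP, and 62.1, 59.8 and 58.4 CPM in Ab. All particle libraries lay above all Ab libraries, by a small margin. ERBB3 rose, with log2 fold changes of 0.24 ± 0.0575 in NR against Ab (adjusted p = 0.000558) and 0.24 ± 0.0631 in SP against Ab (adjusted p = 0.00112). With NR1 as the only NR library, the former was 0.17 and did not pass (adjusted p = 0.0877).

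IGF1R, the receptor for the insulin-like growth factors, had 90.9, 95.7 and 95.6 CPM in NR, 101, 102 and 104 CPM in SP, and 116, 113 and 113 CPM in Ab. The 3 groups did not overlap. IGF1R was lower, with log2 fold changes of -0.28 ± 0.0490 in NR against Ab (adjusted p = 1.34e-05) and -0.15 ± 0.0503 in SP against Ab (adjusted p = 0.0107).

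FGFR3 had 67.5, 70.0 and 81.3 CPM in NR, 82.6, 75.4 and 75.4 CPM in SP, and 70.3, 66.1 and 62.2 CPM in Ab. SP and Ab did not overlap, and NR overlapped with both. The log2 fold change was 0.24 ± 0.0616 in SP against Ab (adjusted p = 0.000979) and 0.14 ± 0.0661 in NR against Ab (adjusted p = 0.0588). The latter was 0.19 without NR1 (adjusted p = 0.0203) and 0.18 without Ab1 (adjusted p = 0.0231). It was 0.05 without NR3 (adjusted p = 0.477), 0.09 without Ab3 (adjusted p = 0.241) and 0.04 with NR1 as the only NR library. With the trends in gene length and GC content removed, it was 0.23 (adjusted p = 0.000692). FGFR1 had 44.4 to 49.2 CPM in NR, 46.6 to 48.1 CPM in SP and 48.1 to 51.0 CPM in Ab, which overlap, and its log2 fold changes were -0.09 ± 0.0622 in NR against Ab (adjusted p = 0.192) and -0.06 ± 0.0605 in SP against Ab (adjusted p = 0.367). With the trends in gene length and GC content removed, FGFR1 was lower in both, with log2 fold changes of -0.12 (adjusted p = 0.0465) and -0.15 (adjusted p = 0.0134).

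**Figure D3:**
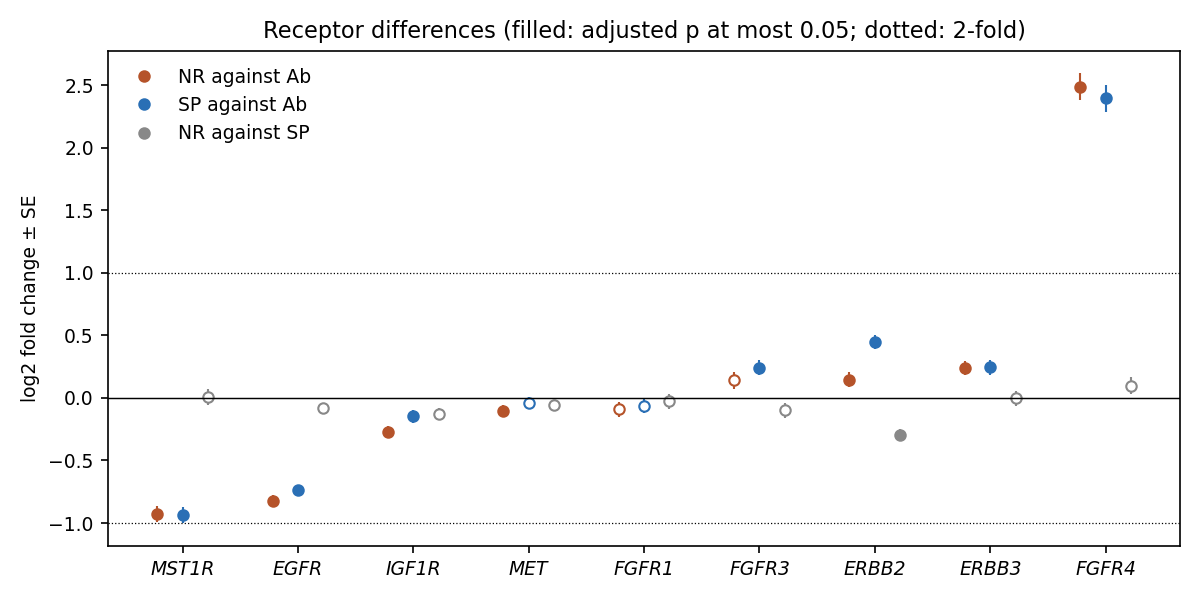
Log2 fold change with its standard error (vertical axis) of the 9 receptors tested in NR against Ab, SP against Ab and NR against SP; filled points have an adjusted p of at most 0.05 and dotted lines mark 2-fold. FGFR4 lies at 2.49 and 2.40, MST1R at -0.93 and -0.94, and in NR against SP only ERBB2 is filled.

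To ask whether the receptors differed between the rods and the spheres, NR was compared with SP directly. By the paper's account these particles also differ in size, supplier and surface charge, so shape cannot be told apart from these. Of the 9 receptors tested, 1 (ERBB2) passed an adjusted p of 0.05, beside 0.443% of 14903 genes, and none changed by 2-fold. DESeq2 likewise gave 1 receptor at that adjusted p and 0 at 2-fold, beside 143 and 0 of all genes. With edgeR, 2 receptors (ERBB2 and IGF1R) had an unadjusted p under 0.05, beside 1922 of all 14903 genes. ERBB2 was lower in NR than in SP by a log2 fold change of -0.30 ± 0.0511 (adjusted p = 0.00997), 0.814 of the level in SP. It was -0.37 without NR1 (adjusted p = 0.000203), -0.27 without NR2 (adjusted p = 0.0669), -0.26 without NR3 (adjusted p = 0.0612) and -0.19 with NR1 as the only NR library (adjusted p = 0.321). The difference was thus larger in NR2 and NR3, the libraries that stood apart in KIT, ALK, PDGFRA, RET and PIK3CA, than in NR1, and the part in it of what set them apart was not tested. For the other 8 receptors the log2 fold change between NR and SP lay between -0.13 ± 0.0459 (IGF1R, adjusted p = 0.219) and 0.10 ± 0.0667 (FGFR4, adjusted p = 0.562). The NR and SP libraries did not overlap for 3 of 9 receptors (MET, ERBB2 and IGF1R), beside 17.8% of all genes.

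The ligands of MET and MST1R came next. HGF had 3 counts in 1 SP library and 0 elsewhere. MST1, the ligand of MST1R, had 1.58, 2.15 and 2.80 CPM in NR, 1.78, 2.07 and 1.55 CPM in SP, and 9.20, 8.24 and 8.23 CPM in Ab, and fell by 2.01 and 2.23 on the log2 scale (SE 0.179 and 0.167, adjusted p = 5.51e-11 and 1.91e-12) in NR and SP against Ab. The MST1 and MST1R transcripts were thus both lower in all 6 particle libraries than in the 3 Ab libraries. Of the 11 ligands, activators and inhibitors of this family, 4 were tested, of which 1 rose and 2 fell in each comparison, beside 36.4% of all genes higher in each and 36.4% and 36.6% lower. ST14, the protease matriptase that activates the precursors of both ligands, was the one that rose, from 13.7, 14.0 and 13.7 CPM in Ab to between 46.5 and 61.6 CPM in the particle libraries (log2 fold change 2.03 ± 0.0763 in NR and 1.94 ± 0.0814 in SP). PLAU, the plasminogen activator urokinase, fell by 2.03 and 1.87 on the log2 scale, and SPINT2, an inhibitor of these proteases, had log2 fold changes of 0.11 and 0.11 that did not pass.

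Of 16 ERBB ligands and the proteins that shed them from the membrane, 10 were tested, of which 4 rose and 5 fell in both comparisons, with medians of -0.13 and -0.26. Of all genes, 36.4% were higher in each comparison and 36.4% and 36.6% lower. Ligands of EGFR were among those that fell. EREG, the highest of the list per length, had 81.1, 72.7 and 75.4 CPM in NR, 81.5, 82.6 and 93.0 CPM in SP, and 220, 226 and 224 CPM in Ab, with log2 fold changes of -1.54 ± 0.0497 and -1.38 ± 0.0530. AREG had 1.51 to 2.32 CPM in NR, 2.11 to 3.09 CPM in SP and 7.55 to 10.2 CPM in Ab, with log2 fold changes of -2.16 ± 0.178 and -1.78 ± 0.166. TGFA, named in addition after its values were seen, had log2 fold changes of -0.77 ± 0.0573 and -0.67 ± 0.0665. HBEGF, also named afterwards, did not pass (0.32 ± 0.231 and 0.02 ± 0.239), and EGF, BTC and EPGN had at most 6 counts in any library.

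NRG4 moved the other way. It had 14.7 to 15.7 CPM in NR, 16.5, 16.5 and 17.3 CPM in SP, and 2.70, 2.95 and 2.95 CPM in Ab, with log2 fold changes of 2.40 ± 0.131 and 2.55 ± 0.124. Of its exon bases 38.2% also belong to other genes, so reads there are uncertain, as they are for PLAU (31.0%), PLCG2 (22.6%) and IER3 (38.9%). The same holds for smaller shared parts of other named genes, among them IGFBP7 (18.3%), ST7 (16.2%), SPINT2 (15.3%), SHC1 (15.2%) and FGF2 (13.0%). The known receptor of NRG4, ERBB4, had at most 4 counts in any library. RHBDF1, an inactive rhomboid that helps to deliver the sheddase ADAM17, had log2 fold changes of -0.86 ± 0.0768 and -0.67 ± 0.0739.

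**Figure D4:**
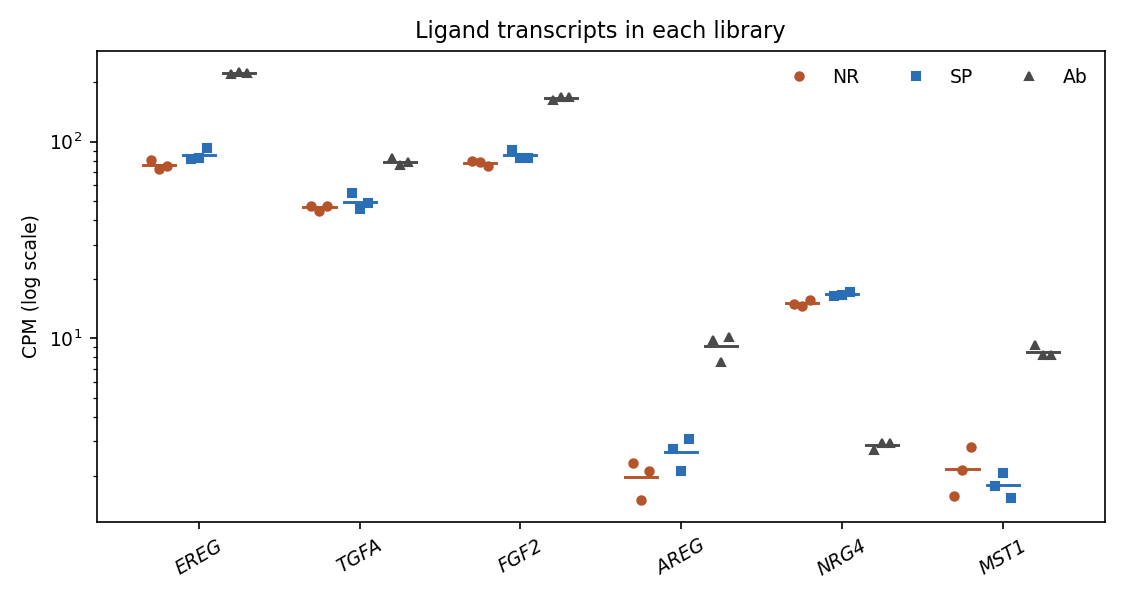
CPM (vertical axis, logarithmic) of 6 ligand transcripts in NR, SP and Ab; each point is 1 library and the short lines are means of 3 libraries. EREG, TGFA, FGF2, AREG and MST1 lie higher in Ab and NRG4 lies lower, with no overlap between Ab and the particle libraries.

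Of 26 FGF ligands, binding proteins and co-receptors, 9 were tested in each comparison with Ab, of which 3 rose and 4 fell in NR and 4 rose and 4 fell in SP, with medians of 0.11 and 0.03. Of all genes, 36.4% rose in each and 36.4% and 36.6% fell. FGF2, the abundant ligand of the list, had 80.0, 78.5 and 75.7 CPM in NR, 90.9, 83.1 and 82.4 CPM in SP, and 164, 168 and 169 CPM in Ab, with log2 fold changes of -1.09 ± 0.0483 and -0.96 ± 0.0520. FGFBP1, which releases FGFs from the matrix, rose by log2 fold changes of 2.30 ± 0.162 and 1.84 ± 0.181. The heparan sulphate carrier GPC1 rose (0.93 ± 0.0528 and 1.09 ± 0.0545), and SDC4, the highest of the list per length, fell (-0.71 ± 0.0502 and -0.71 ± 0.0516). FGF21 had 1, 0 and 0 counts in NR, 0, 1 and 0 counts in SP, and 37, 49 and 51 counts in Ab, at least 12.1-fold lower in NR and at least 15.2-fold lower in SP against the floor per library. FGF19 and KLB, the ligand and the co-receptor tied to FGFR4, had at most 6 and 8 counts in any library.

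Of 15 IGF ligands, receptors and binding proteins, 8 were tested, of which 3 rose and 4 fell in each comparison, with medians of -0.19 and -0.16, beside the same shares of all genes. IGF2 and INS had 0 counts and IGF1 at most 1. IGFBP1, which binds IGFs in the extracellular fluid, had 27.9, 27.7 and 26.1 CPM in NR, 21.6, 22.7 and 25.5 CPM in SP, and 260, 256 and 251 CPM in Ab, with log2 fold changes of -3.22 ± 0.0533 and -3.45 ± 0.0602. IGFBP3 also fell (-1.41 ± 0.0501 and -1.36 ± 0.0545). IGFBP6 rose (1.65 ± 0.0761 and 1.59 ± 0.0762), and so did IGFBP7 (0.58 ± 0.0538 and 0.52 ± 0.0630), while IGFBP4, the highest of the list per length, fell (-0.47 ± 0.0474 and -0.48 ± 0.0491).

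Inside the cell, 32 adaptors and proximal signal carriers were listed and 25 tested. In NR against Ab, 11 rose and 10 fell, and in SP against Ab, 9 rose and 7 fell, with medians of -0.05 and 0.04, beside 36.4% of all genes higher in each and 36.4% and 36.6% lower. GRB10, an adaptor that binds IGF1R and the insulin receptor and dampens them, had 5.10, 5.23 and 5.67 CPM in NR, 5.54, 5.56 and 5.22 CPM in SP, and 26.0, 26.1 and 25.2 CPM in Ab, with log2 fold changes of -2.27 ± 0.1005 and -2.23 ± 0.0978. PIK3R3, a regulatory PI3K subunit, rose (1.57 ± 0.0795 and 1.47 ± 0.0817), as did PLCG2 (1.15 ± 0.186 and 1.12 ± 0.177) and GRB7, an adaptor encoded beside ERBB2 (1.04 ± 0.123 and 1.15 ± 0.117). SHC1, the highest of the list per length, rose less (0.24 ± 0.0451 and 0.34 ± 0.0495). PIK3CA had log2 fold changes of -0.86 ± 0.339 (adjusted p = 0.0806) and -0.09 ± 0.0601 (adjusted p = 0.194), with NR2 and NR3 apart from NR1 as described.

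Of 31 genes of receptor turnover and inhibition, 29 were tested. In NR against Ab 3 rose and 20 fell, and in SP against Ab 4 rose and 19 fell, so that 23 of 29 passed in each, near the 72.7% and 73.0% of all genes, of which 36.4% and 36.6% were lower. The list had medians of -0.39 and -0.41 beside -0.01 for all genes. ERRFI1, which binds and inhibits the kinases of the EGFR family, had 39.6, 39.2 and 37.1 CPM in NR, 39.8, 38.7 and 40.3 CPM in SP, and 113, 119 and 119 CPM in Ab, with log2 fold changes of -1.59 ± 0.0557 and -1.56 ± 0.0577. SOCS2 and SOCS6, of the suppressors of cytokine signalling, fell by 2.80 and 1.39 on the log2 scale in NR and by 2.69 and 1.20 in SP. MUC1, a membrane mucin that is also in the epithelial list, rose and was the highest of the list per length (1.86 ± 0.0531 and 1.86 ± 0.0570).

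Genes known to follow ERK activity, many of which feed back on the pathway, were measured next. Of 17 listed, 16 were tested, of which 2 rose and 13 fell in NR against Ab and 2 rose and 11 fell in SP against Ab, beside 36.4% of all genes higher in each comparison and 36.4% and 36.6% lower. The medians were -1.32 and -1.36, beside -0.01 for all genes in both. FOSL1, an AP-1 subunit, had 40.9, 39.2 and 37.7 CPM in NR, 44.6, 43.3 and 44.7 CPM in SP, and 412, 374 and 382 CPM in Ab, with log2 fold changes of -3.30 ± 0.0536 and -3.13 ± 0.0528. PHLDA1 (-2.56 ± 0.0508 and -2.45 ± 0.0564), IER3 (-1.84 ± 0.207 and -2.11 ± 0.204) and DUSP4, a phosphatase of MAP kinases (-2.25 ± 0.0473 and -2.10 ± 0.0472), fell as well. The 2 that rose were EGR1 and ETV1, both transcription factors, chosen for mention once their values were known. EGR1 had 35.8, 42.0 and 41.0 CPM in NR, 34.9, 43.1 and 48.0 CPM in SP, and 13.6, 11.8 and 12.3 CPM in Ab (log2 fold changes 1.66 ± 0.0846 and 1.75 ± 0.105). ETV1 had log2 fold changes of 1.43 ± 0.143 and 1.25 ± 0.141.

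Of 48 other receptor tyrosine kinases, 22 were tested against Ab, of which 7 rose and 8 fell in NR and 7 rose and 7 fell in SP, with medians of -0.27 and 0.05. These counts were near the shares of all genes, 36.4% higher in each and 36.4% and 36.6% lower. KIT, ALK, PDGFRA and RET are among the 22 and did not pass in either comparison. EPHA2, an ephrin receptor, had the highest level per length of all the receptors listed, 102 over the 9 libraries, and fell from 750, 693 and 705 CPM in Ab to 267, 252 and 265 CPM in NR and 285, 298 and 291 CPM in SP (log2 fold changes -1.45 ± 0.0438 and -1.29 ± 0.0447). AXL, the receptor for GAS6, fell (-1.52 ± 0.04997 and -1.36 ± 0.0533), and so did DDR2, a collagen receptor (-1.83 ± 0.168 and -1.85 ± 0.162). PDGFRB rose from 10, 11 and 8 counts in Ab to 320, 150 and 165 in NR and 256, 272 and 275 in SP (log2 fold changes 4.65 ± 0.207 and 4.79 ± 0.197), one of the 3 of 6 tested fibroblast markers that rose. CSF1R rose from 3, 8 and 3 counts in Ab to 56 to 76 in NR and 56 to 124 in SP (4.10 ± 0.333 and 4.25 ± 0.362). DDR1, a receptor common in epithelium, had at most 2 counts in any library.

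**Figure D5:**
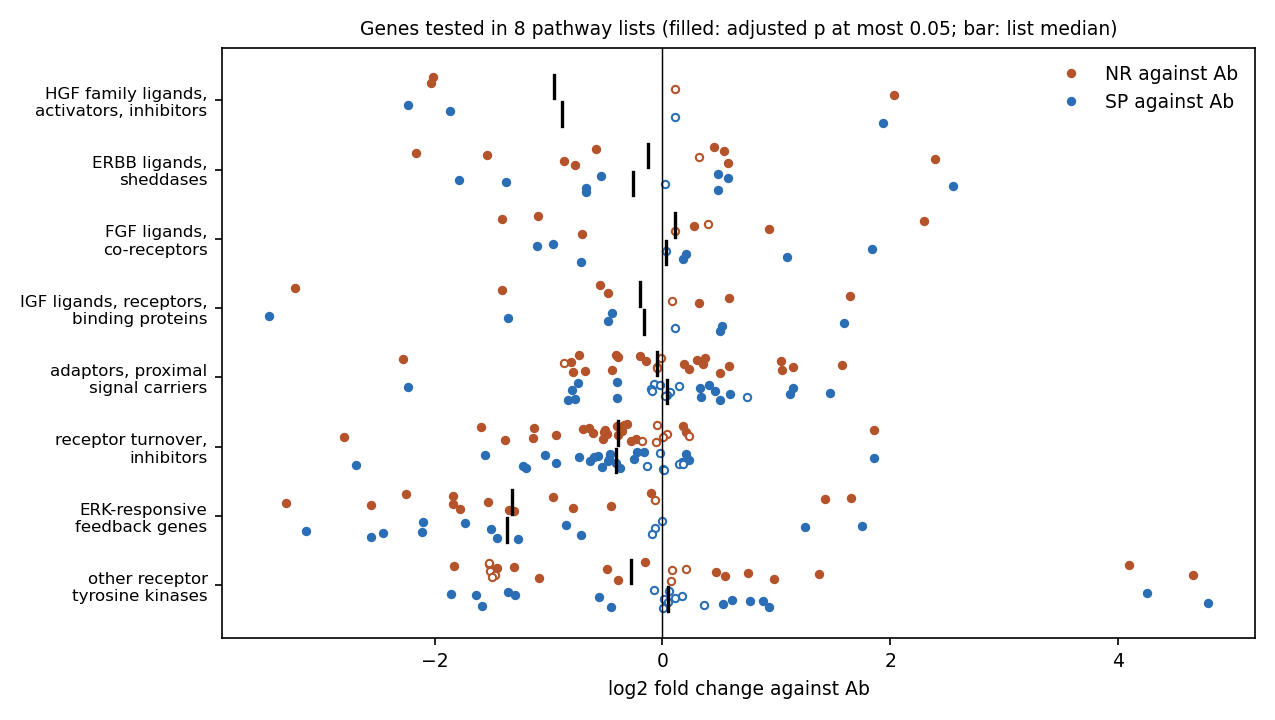
Log2 fold change against Ab (horizontal axis) of the genes tested in 8 pathway lists, for NR and SP; each point is 1 gene, filled where its adjusted p is at most 0.05, black bars are list medians, and FGF21, for which only a bound is given, is not drawn. The ERK-responsive genes have medians of -1.32 and -1.36, and the lists of ligands hold genes on both sides of 0.

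Between NR and SP, 0 of the 119 tested genes of these 8 lists passed an adjusted p of 0.05 with edgeR, beside 0.443% of all genes. An unadjusted p under 0.05 was found for 26 of the 119 and for 1922 of all 14903 genes, and DESeq2 passed 1 of the 119. The gene nearest to the threshold was EPHA2, with a log2 fold change of -0.16 ± 0.0375 (adjusted p = 0.0538).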

How the data were processed

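Poly-A RNA of SNU5 cells was sequenced in 9 libraries of 3 groups. The authors aligned the reads with Hisat2 2.1.0, per the submitters' processing notes, and deposited whole read counts per Ensembl gene, not scaled between libraries. The study's reporting summary names hg19 as the genome, the processing notes name mm9, and the IDs are human. The counter is named differently in the methods and in the reporting summary. Strand and annotation release are not given in the sources used here. Of 60880 IDs, 59858 were matched to GENCODE release 44 on GRCh37 for names, positions and exon lengths, and the others held at most 0.115% of the counts of a library.

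Pairs of groups were compared on 6 libraries with edgeR 4.0.16 in R 4.3.3 (TMM, filterByExpr with a minimum count of 10 and total of 15, robust quasi-likelihood test, two-sided, Benjamini-Hochberg over all genes tested). Standard errors were taken from the log2 fold change and its F statistic. The steps were tested on simulated data. A call needed a 2-fold change and an adjusted p no higher than 0.05. Alternatives were DESeq2 1.42.0, RLE factors, other filters, edgeR's glmTreat, all 9 libraries in one fit, a replicate block, removal of length and GC trends and each library left out in turn. NR1 as the only NR library was added after seeing the data. The receptors and gene lists were chosen with earlier results of these data known. Values of some single marker genes are not reported here.

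Beside the receptors, in each list up to 4 genes were named with the largest mean absolute log2 fold change over the comparisons with Ab (adjusted p at most 0.05 in both, 50 or more counts on average in the group with more), as well as the highest per length, any that passed in NR against SP, the neighbours of MET within 500 kb, and for MET and FGFR4 the 3 genes with the most similar values. Within a group, any pair of libraries gave a chi-square per gene between 1.84 and 7.43, so none was the same library sequenced again. This check cannot tell separate cultures from repeat preparations of the same RNA. Python 3.11.15, numpy 2.4.6, pandas 2.3.3 and matplotlib 3.10.9 were used for tables and figures.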

Additional observations from a re-analysis of the deposited data

Results flagged for a closer look

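ERBB2 stood out in the direct contrast of NR against SP, with a log2 fold change of -0.30 (edgeR's quasi-likelihood test, adjusted p = 0.00997), and all 3 NR libraries lay below all 3 SP libraries. It did not pass without NR2 (adjusted p = 0.0669), without NR3 (adjusted p = 0.0612) or with NR1 as the only NR library (adjusted p = 0.321). Against the same Ab libraries the log2 fold change was 0.45 for SP and 0.15 for NR, and the latter did not pass without NR1 (adjusted p = 0.308).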

How the results depend on the processing

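FGFR4 passed and kept its direction in 15 of 15 alternatives of NR against Ab (log2 fold changes 2.32 to 2.59) and in 14 of 14 of SP against Ab (2.23 to 2.49). EGFR, IGF1R and MST1R kept theirs and passed in all but glmTreat, which tests against 2-fold. In the comparisons with Ab no receptor and no other gene named by the rule changed direction in any alternative. In NR against Ab the number of receptors at an adjusted p of at most 0.05 ranged from 5 to 9. With glmTreat, 2061 genes were called in NR against Ab and 2131 in SP against Ab, in place of 3409 and 3502. Of all genes in NR against SP, 3 were called and 66 had an adjusted p of at most 0.05. DESeq2 called 0 and glmTreat 0 (1922 genes had an unadjusted p under 0.05 with edgeR), and 27 were called with no filter on low counts. At the adjusted p alone DESeq2 gave 143, no filter 328 and removal of the length and GC trends 24. Leaving out one library gave 0 to 28 called genes, with 28 without NR1 and 0 without NR2, and 10 to 188 at the adjusted p alone, with 10 without NR2 and 188 without SP3. The number of receptors at that p was 0 to 1 when one library was left out, and 0 with NR1 as the only NR library. The cause was not tested. With the longest transcript as the length, EGFR over MET came to 2.03 in place of 1.33, and the share of MET in the summed level to 19.0% in place of 25.5%.

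In NR against SP, ERBB3 (main value -0.0041) changed sign with the replicate block (0.0018), with the length and GC trends removed (0.027) and between -0.062 and 0.041 with one library left out. FGFR1 did so with those trends removed (0.029) and ranged from -0.067 to 0.0012 with one library left out, and MST1R ranged from -0.023 to 0.071. None of these passed. Libraries of the same number in different groups did not deviate together (correlations of -0.032 to 0.028), so the numbers were not taken to pair them. The replicate block gave 6 receptors in place of 7 in NR against Ab, 7 in SP against Ab and 1 in NR against SP, and over all genes 3414, 3493 and 4 called and 10630, 10970 and 51 at the adjusted p alone.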

Other observations

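The genes whose values were most like those of MET over the 9 libraries were ZNF330, ZNF615 and TASOR, with Pearson r of log2(CPM + 1) of 0.954, 0.942 and 0.934 among 10762 genes with a mean of at least 100 counts. For FGFR4 they were DCTN3, IL32 and PSMB2, with r of 0.999, 0.998 and 0.998. The 9 libraries fall into 3 groups and these values are a description. The 5 genes that were higher in NR2 and NR3 than in all other libraries were MTCO1P11, MTCO1P21, MTCO1P53 and MTCO1P24, pseudogenes of a mitochondrial gene, and CASTOR2. MTCO1P11 had 46 and 38 counts there and at most 6 elsewhere.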
